A study of Mus musculus with 6 samples.

Results

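The constitutive proteasome genes were taken as the genes whose symbol in the array's annotation is Psma, Psmb, Psmc or Psmd followed only by digits, without the inducible Psmb8, Psmb9 and Psmb10. There were 36 such genes among 17711 genes with a named probe. The rule uses names and no measured value. Their RNA was compared between mouse regulatory T cells of the genotypes Blimp1 gfp/gfp and Blimp1 +/gfp, with 3 Illumina arrays for each. Per the labels, all samples came from bone marrow of strain C57/B6. Both genotypes carry the gfp allele of Blimp1, the gene also called Prdm1, so neither group has 2 intact copies. From general knowledge of this allele, a cell homozygous for gfp has no functional Blimp-1, a transcriptional repressor of late lymphocyte differentiation, while a heterozygous cell keeps a working allele. The labels give no age, sort gate or pooling of animals, and they do not state whether different animals gave the 3 samples of a genotype. The p-values then reflect only how these samples vary, which may be technical.

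The proteasome is the protease that degrades proteins tagged with ubiquitin. Its barrel-shaped 20S core has outer rings of alpha subunits, encoded by Psma genes, and inner rings of beta subunits, encoded by Psmb genes, of which Psmb5, Psmb6 and Psmb7 give the active sites. The 19S cap recognises, unfolds and feeds in the substrate, with a ring of ATPases, encoded by Psmc genes, and further subunits, encoded by Psmd genes. Lymphocytes and cells exposed to interferon replace the 3 active beta subunits with Psmb8, Psmb9 and Psmb10, which gives the immunoproteasome, known for cutting peptides for MHC class I.

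No constitutive proteasome gene passed the test between the genotypes. Of the 36 genes, 30 were detected on at least 3 of the 6 arrays and were tested, and 0 of the 30 were past a Benjamini-Hochberg adjusted p of 0.05 in limma, where 4.12% of all 8739 genes tested were called. At an unadjusted p under 0.05, 5 of the 30 were higher in Blimp1 gfp/gfp, against 11.3% of all genes, and 0 were lower, against 7.22% of all genes. The 5 were Psmc1, Psmc2, Psmd6, Psmd12 and Psmd14, all of the 19S cap. The 3 values of each genotype lay apart for 8 members, all higher in Blimp1 gfp/gfp, where 15.4% of all genes lay apart in that direction and 10.4% in the other. The median log2 difference, Blimp1 gfp/gfp minus Blimp1 +/gfp, was 0.13 over the 30 members and 0.03 over all genes tested. Over 17 other ways of processing the same arrays, Psmc1 passed in 5 and Psmd6 in 3, both as higher, and no other member passed in any.

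The intervals show how large a difference the data allow. For 25 of the 30 members the 95% interval of the difference lay within a 2-fold change in either direction, which held for 73.5% of all genes tested. For 18 of the 30 it lay within a 1.5-fold change, against 32.7% of all genes. The median standard error was 0.18 on the log2 scale for the members and 0.19 for all genes. Most members are bright on these arrays, and bright genes had smaller standard errors: 23 of the 30 were in the brightest of 3 equal classes of the genes tested, where the median standard error was 0.16. The median SD between the 3 arrays of a genotype of the members was 0.21 for Blimp1 +/gfp and 0.16 for Blimp1 gfp/gfp, where all genes tested gave 0.23 and 0.21. That no member passed does not show that the genotypes were alike.

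**Figure D1:**
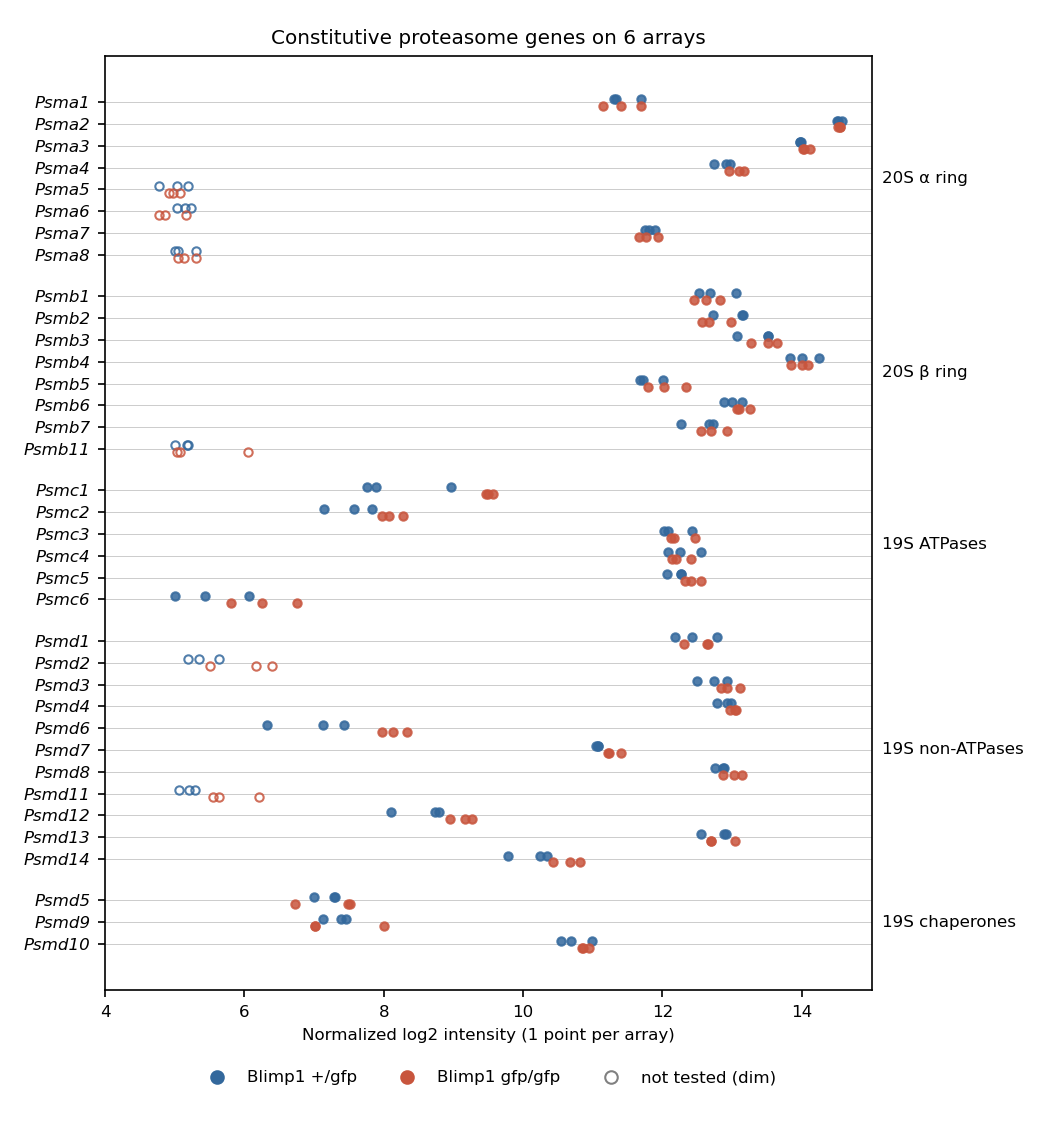
Normalized log2 intensity of each of the 36 constitutive proteasome genes on every array, grouped by role, with 1 point per array (blue, Blimp1 +/gfp; red, Blimp1 gfp/gfp) and open circles for the 6 genes too dim to test. The points of the 2 genotypes lie apart for Psma3, Psmc1, Psmc2, Psmc5, Psmd6, Psmd7, Psmd12 and Psmd14 and overlap for the other 22 tested genes.

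The samples carried the transcripts of regulatory T cells. Foxp3, the defining transcription factor, had log2 intensities of 11.85, 12.66 and 12.23 in Blimp1 +/gfp and of 11.44, 12.36 and 12.09 in Blimp1 gfp/gfp, which overlap. All 5 markers of these cells were tested, all 5 had negative differences, with a median of -0.50, and Tnfrsf18 fell by 1.11 (adjusted p = 0.0243, limma with Benjamini-Hochberg). Of 6 T cell markers tested, 0 passed, and Cd2 (-0.63) and Cd5 (-0.32) lay apart and lower. Prdm1, the targeted gene, was 5.76, 5.82 and 5.5 in Blimp1 +/gfp, detected on 1 array, against 7.14, 7.75 and 7.54, detected on 3 (1.79 ± 0.20 SE; adjusted p = 0.00744, limma with Benjamini-Hochberg). Where its probe lies relative to the gfp insertion is not known here, and this level therefore checks nothing about the loss of the protein. Between 31.5% and 34.5% of the 46632 probes were detected on an array, and the number of arrays limits the precision. Over all genes, 212 were higher and 148 lower, a split of 294 and 120 with median scaling, and the total was between 71 and 347 when single arrays were left out.

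Markers of other cells were present and varied between arrays. Of 12 listed myeloid markers 11 had a probe, 5 were tested and 0 passed, with a mean log2 level of 7.35 to 8.08 in Blimp1 +/gfp and 6.33 to 7.66 in Blimp1 gfp/gfp. Lyz2 was 10.29, 10.55 and 10.94 against 10.28, 7.35 and 7.16, and Fcer1g reached 12.91 in replicate 3 of Blimp1 +/gfp. Of the 5 tested, 2 had positive differences, Mpo (0.64) and Camp (0.12), while Ltf differed by -0.98. Cd14, not tested, was detected on 1 array of each genotype, at 8.35 in Blimp1 +/gfp replicate 3 and 8.52 in Blimp1 gfp/gfp replicate 2. S100a8 and S100a9 were detected on 2 Blimp1 +/gfp arrays only, at 8.23 to 9.97, while Itgam and Elane were detected on no array. Of 7 dendritic and antigen presentation markers 5 were tested, with a mean log2 level of 11.65 for replicate 3 of Blimp1 +/gfp and between 9.69 and 10.33 elsewhere, and Irf8 fell by 1.79 (adjusted p = 0.0348, limma with Benjamini-Hochberg). Of 8 B and plasma cell markers 3 were tested and 0 passed, at 9.22 to 10.28 against 9.91 to 10.56. Cd79a differed by 1.91 ± 0.60 (SE) and was detected on 1 Blimp1 +/gfp array and 3 Blimp1 gfp/gfp arrays. Cd79b differed by 0.26, while Xbp1 went the other way, by -0.66 ± 0.16 (SE), without overlap. Ms4a1, not tested, was detected on 0 Blimp1 +/gfp arrays and 2 Blimp1 gfp/gfp arrays, while Pax5, Sdc1 and Jchain were detected on no array. Of 6 erythroid markers 3 were tested and 0 passed, at 5.51 to 8.86 against 7.30 to 8.95, with positive differences for Hba-a1 (2.23), Klf1 (0.65) and Alas2 (0.62). Klf1 was detected on 0 Blimp1 +/gfp and 3 Blimp1 gfp/gfp arrays and Alas2 on 1 and 3, so the sizes of their differences are uncertain. Hba-a1 had an SE of 1.85, and its highest value, 13.4, was in Blimp1 +/gfp replicate 3. Gata1 was detected on no array. Of 6 CD8 and NK cell markers 4 were tested and 0 passed, at 9.35 to 9.42 against 8.82 to 9.93. Cd8b1 lay between 11.13 and 12.03. The differences were -0.14 for Cd8b1, -0.69 for Klrd1, 0.59 for Klrb1c and 0.78 for Eomes. The part of these cells in the differences of the members was not tested. The arrays of one genotype shared 1 BeadChip and those of the other another. Eif2s3y, on the Y chromosome, was detected in 3 of 3 Blimp1 +/gfp samples and 0 of 3 Blimp1 gfp/gfp samples, and Xist was 9.69, 9.20 and 5.52 against 9.89, 11.37 and 11.02. Blimp1 +/gfp replicates 1 and 2 thus carried both transcripts and replicate 3 only that of the Y chromosome, so BeadChip, sex of the animals and genotype cannot be told apart. Of the members only Psmd10 lies on the X chromosome. In bulk samples, fewer cells of a type and less RNA per cell cannot be told apart.

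The alpha ring genes differed little between the genotypes. Of 8, 5 were tested, 0 passed, and their differences ran from -0.04 to 0.20 with a median of 0.00 on the log2 scale. All 5 intervals lay within a 1.5-fold change. Psma4 had normalized log2 intensities of 12.97, 12.91 and 12.74 in Blimp1 +/gfp and 12.95, 13.17 and 13.10 in Blimp1 gfp/gfp. The genotypes overlapped, and the difference was 0.20 ± 0.14 (SE; adjusted p = 0.528, limma with Benjamini-Hochberg). Psma3 was 13.97, 13.97 and 13.99 against 14.02, 14.12 and 14.03, so every Blimp1 gfp/gfp value was the higher, but by a difference of only 0.08 ± 0.12 (SE). Psma1 was highest in Blimp1 +/gfp replicate 1 and Blimp1 gfp/gfp replicate 2, both at 11.69, and lowest in Blimp1 gfp/gfp replicate 1, at 11.15. Psma2 stayed between 14.51 and 14.58 on all 6 arrays, with an interval for the difference of -0.29 to 0.30. Psma7 lay between 11.67 and 11.94. These subunits form the gate of the barrel, and the cap docks on them.

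The other 3 alpha genes were not measured above background. The single probes of Psma5 and Psma6 were detected on 0 arrays, at 4.77 to 5.19 and 4.77 to 5.23. Psma5 and Psma6 encode alpha subunits that every known mammalian proteasome holds, so these probes say nothing on the level of their RNA. Psma8, the alpha subunit of the testis, was also detected on 0 arrays with either of its 2 probes.

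The beta ring genes did not pass either, and they differed in sign among themselves. Of 8, 7 were tested, with differences from -0.27 to 0.24 and a median of 0.10, and all 7 intervals lay within a 2-fold change. Psmb5, which carries the chymotrypsin-like site, was 12.01, 11.68 and 11.72 in Blimp1 +/gfp and 12.34, 12.02 and 11.79 in Blimp1 gfp/gfp. Replicate 1 was the highest of each genotype and the values overlapped, with a difference of 0.24 ± 0.19 (SE; adjusted p = 0.571, limma with Benjamini-Hochberg). Psmb6, with the caspase-like site, was 13, 13.14 and 12.88 against 13.25, 13.10 and 13.07, a difference of 0.13 ± 0.14 (SE). Psmb7, with the trypsin-like site, was 12.73, 12.67 and 12.26 against 12.92, 12.70 and 12.55, a difference of 0.17 ± 0.19 (SE). Its other probes, less bright, differed by 0.37 and 0.25. All 3 catalytic genes had overlapping genotypes, and the upper ends of their intervals were 0.70, 0.46 and 0.61.

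The structural beta subunits, which carry no active site, were spread around no difference. Psmb2 had the lowest difference of any member. Its intensities were 13.14, 13.16 and 12.72 in Blimp1 +/gfp and 12.98, 12.57 and 12.67 in Blimp1 gfp/gfp, which overlap (-0.27 ± 0.19 SE; adjusted p = 0.524, limma with Benjamini-Hochberg). A second, dimmer probe of Psmb2 had the other sign, at 0.45 ± 0.36 (SE). Psmb1 differed by -0.12, Psmb3 by 0.10 and Psmb4 by -0.05, each by less than its standard error. Psmb11, the catalytic subunit of cortical thymic epithelium, was detected on 1 array, Blimp1 gfp/gfp replicate 1 (6.05), and lay between 5.0 and 5.19 on the other 5.

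Beside these constitutive sites, the inducible sites were lower in each Blimp1 gfp/gfp sample. Psmb9, which replaces Psmb6, was 13.78, 13.83 and 13.84 in Blimp1 +/gfp and 13.16, 13.35 and 13.16 in Blimp1 gfp/gfp. The genotypes lay apart by -0.59 ± 0.13 (SE), which did not pass the test (adjusted p = 0.0607, limma with Benjamini-Hochberg). Psmb10, which replaces Psmb7, was 13.11, 12.93 and 13.24 against 12.46, 12.49 and 12.55 (adjusted p = 0.0743, limma with Benjamini-Hochberg). Its second probe had a smaller difference, -0.37 against -0.59. Psmb8, which replaces Psmb5, was 14.55, 14.55 and 14.81 against 14.27, 14.16 and 14.12 (adjusted p = 0.147, limma with Benjamini-Hochberg). Its other probes differed by -0.30 and -0.57, against -0.45 for the probe used. Psmb9 and Psmb10 each passed in 3 of the 17 other settings, and Psmb8 in 0.

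The balance within each catalytic pair differed between the genotypes on every array. Taken on each array as the constitutive minus the inducible log2 value and set to 0 at the Blimp1 +/gfp mean, the pair Psmb6 and Psmb9 was 0.03, 0.12 and -0.15 in Blimp1 +/gfp and 0.90, 0.56 and 0.72 in Blimp1 gfp/gfp. The shift was 0.72 with an SD of 0.14 and 0.17 (n = 3 each), or 1.65-fold toward the constitutive gene. The pair Psmb7 and Psmb10 was 0.16, 0.28 and -0.44 against 1.0, 0.75 and 0.54, a shift of 0.76. For Psmb5 and Psmb8 the values were 0.30, -0.04 and -0.26 against 0.91, 0.68 and 0.50, a shift of 0.70. The genotypes did not overlap in any of the 3 pairs. A two-sided exact permutation test gave p = 0.1 for each (0.1 after Benjamini-Hochberg adjustment over the 3 pairs), which is the smallest p that 3 against 3 arrays allow, so no pair could pass. These ratios were computed after the values were seen. They describe an unequal change within a pair on these arrays, which no test here could establish, and not the amount of either protein. Over the other settings, always as plain means without array weights, the shifts stayed between 0.54 and 0.90.

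**Figure D2:**
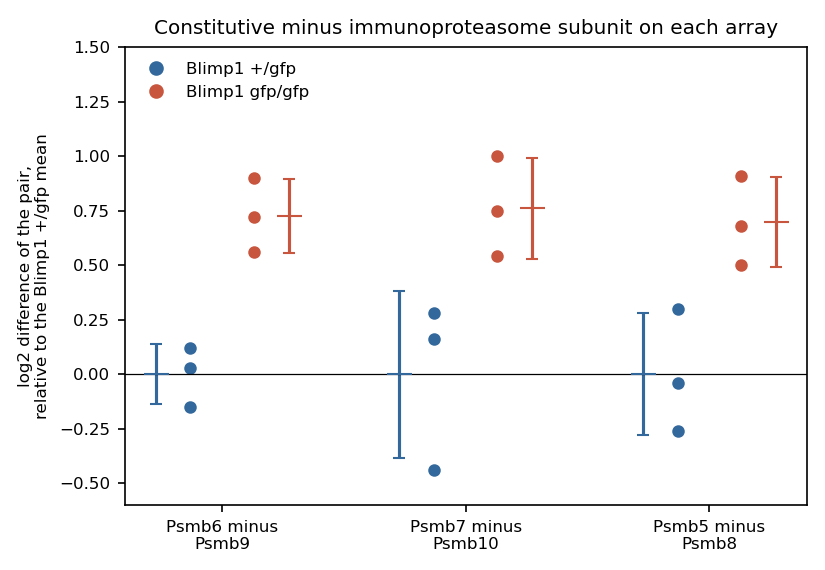
Log2 value of each constitutive catalytic gene minus that of its inducible counterpart on every array, set to 0 at the Blimp1 +/gfp mean, with 1 point per array and the mean ± SD of 3 arrays beside it. The Blimp1 gfp/gfp points lie between 0.50 and 1.0, above all Blimp1 +/gfp points, which reach 0.30 at most.

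Among the ATPases of the 19S cap, Psmc1 had the largest difference of any tested member. These genes encode the ring that unfolds the substrate and opens the gate of the core. All 6 were tested, 0 passed, and the differences ran from -0.05 to 1.31 with a median of 0.42. Psmc1 was 7.89, 7.76 and 8.96 in Blimp1 +/gfp and 9.57, 9.47 and 9.50 in Blimp1 gfp/gfp. All 3 Blimp1 gfp/gfp values lay above the highest Blimp1 +/gfp value, that of replicate 3, and the difference was 1.31 ± 0.32 (SE), a 2.49-fold ratio with a 95% interval of 1.48 to 4.18 (adjusted p = 0.0762, limma with Benjamini-Hochberg). Without Blimp1 +/gfp replicate 3 it was 1.71 and passed (adjusted p = 0.00582, limma with Benjamini-Hochberg), in a range of 0.00582 to 0.216 over the settings. Psmc1 has 1 probe here, so no second measurement stands beside it.

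Psmc2 and Psmc6 had the same sign at lower levels of signal. Psmc2 was 7.83, 7.58 and 7.14 in Blimp1 +/gfp and 8.28, 7.98 and 8.08 in Blimp1 gfp/gfp, without overlap (0.60 ± 0.21 SE; adjusted p = 0.182, limma with Benjamini-Hochberg). Psmc6 was near background: 1 Blimp1 +/gfp sample and 3 Blimp1 gfp/gfp samples had it detected. Its values were 5.0, 6.07 and 5.44 against 6.26, 5.81 and 6.75, which overlap, so the size of its difference, 0.77 ± 0.34 (SE), is uncertain. The 3 bright ATPase genes had smaller differences. Psmc3 differed by 0.08 and Psmc4 by -0.05, each by less than its standard error. Psmc5 was 12.26, 12.27 and 12.06 against 12.56, 12.33 and 12.41, without overlap, and differed by 0.23 ± 0.14 (SE; adjusted p = 0.448, limma with Benjamini-Hochberg). The 6 ATPases are present in equal number in the ring, while the differences of their genes ran from none to 2.49-fold.

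The non-ATPase genes of the cap all had positive differences. Of 11, 9 were tested and 0 passed, with differences from 0.02 to 1.18 and a median of 0.22, where 54.7% of all genes tested had a positive difference. Psmd6, which encodes a scaffold subunit of the lid, was 7.43, 7.13 and 6.33 in Blimp1 +/gfp and 8.33, 8.13 and 7.98 in Blimp1 gfp/gfp. The genotypes lay apart by 1.18 ± 0.29 (SE), a 2.27-fold ratio with a 95% interval of 1.41 to 3.66 (adjusted p = 0.0800, limma with Benjamini-Hochberg). The second probe of Psmd6, detected on only 3 arrays, differed by 0.94 ± 0.20 (SE). Its mean log2 level over the Blimp1 +/gfp arrays was 5.41, near background, against 6.35 for the other genotype. The size of its difference is therefore uncertain. The mean over both probes passed (adjusted p = 0.0377, limma with Benjamini-Hochberg, range over the settings 0.0311 to 0.189). That result rests in part on the dim probe, which is a weak second measurement. Psmd6 lay lowest in Blimp1 +/gfp replicate 3, the array on which Psmc1 was highest of its genotype.

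Psmd12 and Psmd14 were the other non-ATPase genes with an unadjusted p under 0.05. Psmd12, a lid scaffold subunit, was 8.73, 8.79 and 8.10 in Blimp1 +/gfp and 9.27, 9.17 and 8.95 in Blimp1 gfp/gfp (0.59 ± 0.22 SE; adjusted p = 0.208, limma with Benjamini-Hochberg). Psmd14 encodes the deubiquitinase that removes the ubiquitin chain as the substrate enters. Its values were 10.24, 10.35 and 9.79 against 10.68, 10.43 and 10.82 (0.51 ± 0.20 SE; adjusted p = 0.23, limma with Benjamini-Hochberg). In both genes the genotypes did not overlap, by narrow gaps between the nearest arrays, and Blimp1 +/gfp replicate 3 was the lowest of all 6. Psmd7, the partner of Psmd14 in the lid, was 11.05, 11.08 and 11.08 against 11.41, 11.22 and 11.24, again without overlap but with a difference of only 0.22 ± 0.13 (SE). Its other 2 probes differed by 0.32 and -0.02.

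The remaining cap genes were close to no difference or not measured. Psmd1, a large scaffold of the base, differed by 0.07, Psmd13 by 0.02, Psmd8 by 0.17, and the ubiquitin receptor Psmd4 by 0.13, each with overlapping genotypes. Psmd3 differed by 0.24 ± 0.17 (SE). Psmd2 was detected on 2 arrays and Psmd11 on 1, all of Blimp1 gfp/gfp, and neither gene was tested. Psmd2 was 5.19, 5.63 and 5.35 in Blimp1 +/gfp against 5.51, 6.39 and 6.16, and Psmd11 was 5.29, 5.06 and 5.21 against 6.21, 5.55 and 5.64, with undetected values among those of each genotype, so no fold is given.

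The 3 chaperones of cap assembly that carry a Psmd symbol did not separate the genotypes. Psmd5 was 7.29, 7.0 and 7.30 in Blimp1 +/gfp and 6.72, 7.52 and 7.49 in Blimp1 gfp/gfp. Psmd9 was 7.13, 7.46 and 7.38 against 8.0, 7.01 and 7.02. In both, Blimp1 gfp/gfp replicate 1 stood apart from the other 2 samples of its genotype, and in opposite directions. Psmd10, also called gankyrin, was 10.99, 10.69 and 10.54 against 10.86, 10.95 and 10.84. The 3 differences were 0.05, 0.02 and 0.15, with adjusted p in limma (Benjamini-Hochberg) from 0.71 to 0.984.

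**Figure D3:**
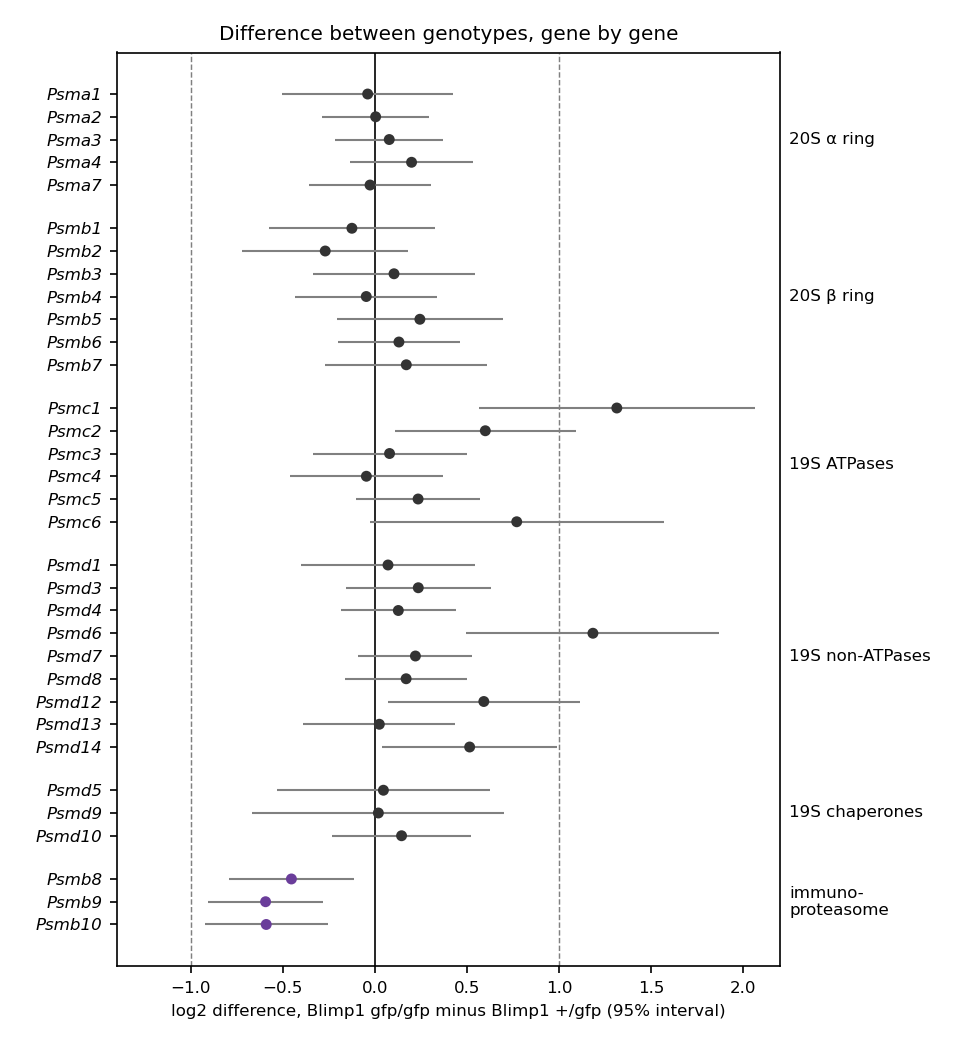
Log2 difference between the genotypes, Blimp1 gfp/gfp minus Blimp1 +/gfp, with its 95% interval from limma, for the 30 tested constitutive genes (black) and Psmb8, Psmb9 and Psmb10 (purple), with dashed lines at a 2-fold change. The intervals of the 20S genes all cross 0, those of Psmc1, Psmc2, Psmd6, Psmd12 and Psmd14 lie above 0, and those of the 3 inducible genes lie below it.

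The larger differences were found among the dimmer members, though not in all of them. All genes tested were split by mean intensity into 3 equal classes. The dim class held Psmc6 (0.77), Psmd5 (0.05), Psmd6 (1.18) and Psmd9 (0.02), with a median difference of 0.41. In it 1 member lay apart with the higher values in Blimp1 gfp/gfp, against 14.5% of all genes of that class. In the middle class, which held Psmc1, Psmc2 and Psmd12, the median was 0.60 and 3 of 3 lay apart with the higher values in Blimp1 gfp/gfp, against 17.4% of all genes of that class. Of the 23 bright members, 17 had a positive difference, where 54.7% of all genes tested had one, and all 23 lay between -0.27 and 0.51. In this class 4 members lay apart with the higher values in Blimp1 gfp/gfp, against 14.25% of all its genes. In the other direction 0 lay apart, against 12.36%. Over all genes tested, the median difference was 0.04 in the dim and middle classes and 0.02 in the bright class.

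**Figure D4:**
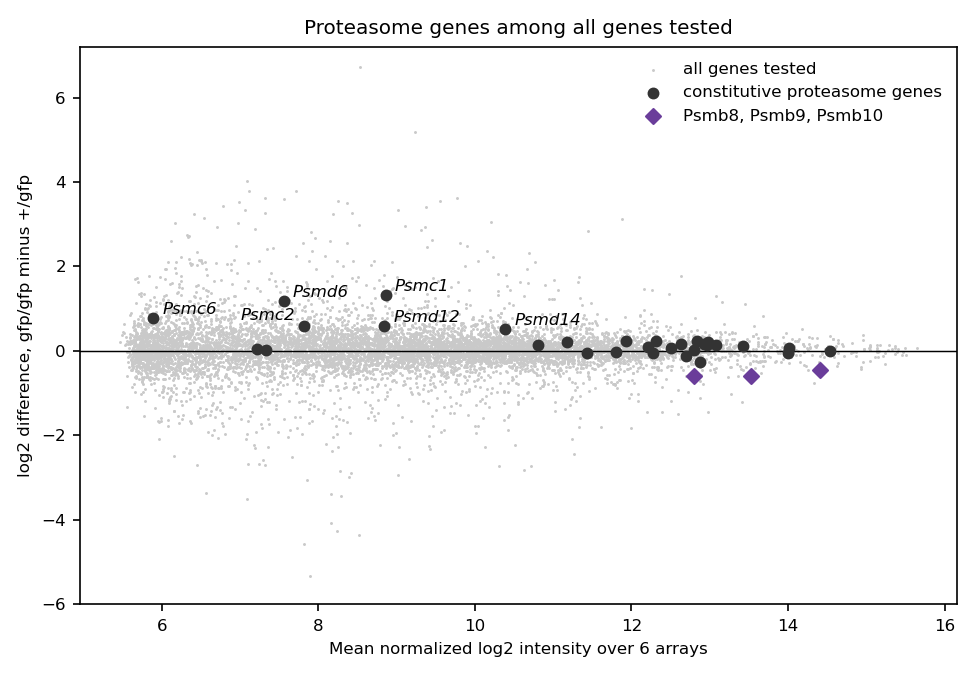
Log2 difference between the genotypes against the mean normalized log2 intensity over 6 arrays, for all 8739 genes tested (grey), the 30 constitutive proteasome genes (black) and the 3 inducible catalytic genes (purple diamonds). The bright constitutive genes lie within -0.27 to 0.51, and Psmc1 and Psmd6 are the highest of the members.

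The array medians of the members lay apart between the genotypes, and single arrays stood out within them. As the median deviation of the 30 genes from their own means over 6 arrays, Blimp1 +/gfp replicates 1, 2 and 3 lay at -0.02, -0.03 and -0.19, and Blimp1 gfp/gfp replicates 1, 2 and 3 at 0.20, 0.07 and 0.00. The lowest Blimp1 gfp/gfp median was thus close to the highest of Blimp1 +/gfp. Of the 30 differences, 24 were positive (80%), against 54.7% over all genes tested. Blimp1 gfp/gfp replicate 1 had the highest value of 15 of the 30 genes, and Blimp1 +/gfp replicate 3 the lowest value of 16. The same 2 arrays were the ends of the proliferation list (10 of 14 genes tested, 0 called), at 0.61 and -0.65, and of 7 general transcripts such as Actb and Gapdh, at 0.10 and -0.15. Blimp1 +/gfp replicate 3 also had the highest level of the antigen presentation markers. Blimp1 gfp/gfp replicate 1 had the lowest mean log2 level of the regulatory T cell markers, at 10.64, against 11.25 to 11.92 on the other arrays. It had the lowest value of 4 of the 5 regulatory T cell markers and of 4 of the 6 T cell markers tested. Its mean level of the B and plasma cell markers was the highest, at 10.56. The part of these in the differences of the members was not tested. Without Blimp1 +/gfp replicate 3 the median difference of the members was 0.08, and 0.01 over all genes.

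**Figure D5:**
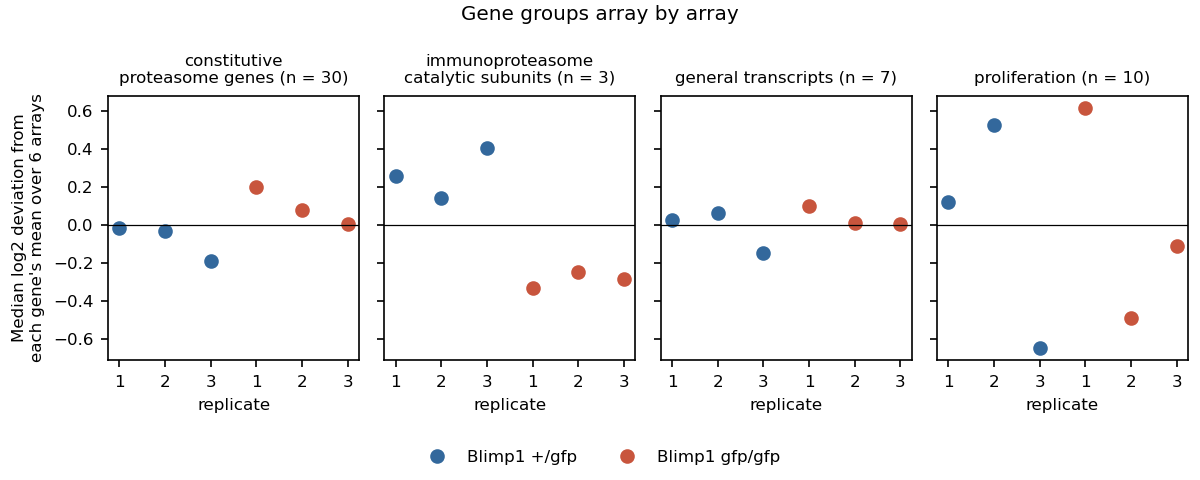
Median log2 deviation of the genes of a group from each gene's own mean over 6 arrays, on every array (blue, Blimp1 +/gfp; red, Blimp1 gfp/gfp), for the constitutive proteasome genes, the inducible catalytic genes, general transcripts and proliferation genes. The constitutive genes span -0.19 to 0.20, the inducible genes lie at 0.14 to 0.40 in Blimp1 +/gfp and at -0.33 to -0.25 in Blimp1 gfp/gfp, and the proliferation genes span -0.65 to 0.61 with no separation of the genotypes.

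The other genes of the pathway were also without a call. Of 37 genes in 7 related lists, 27 had a named probe and 25 were tested. Of these, 0 were higher and 0 lower (limma, Benjamini-Hochberg adjusted p under 0.05), where 4.12% of all genes tested were called. An unadjusted p under 0.05 was reached by 2 higher and 3 lower genes of the 25, against 11.3% and 7.22% of all genes tested. The median difference was 0.03. The 3 lower were the inducible catalytic genes. The 2 higher were Psmg1, a chaperone of alpha ring assembly (0.49 ± 0.17 SE), and Usp14, a deubiquitinase bound to the cap (0.55 ± 0.18 SE). Psme1 and Psme2 encode the interferon-inducible activator PA28, and neither passed. Psme1 was 14.15, 14.04 and 13.92 in Blimp1 +/gfp and 13.76, 13.91 and 13.84 in Blimp1 gfp/gfp, without overlap (-0.20 ± 0.14 SE). Psme2 was 10.51, 10.47 and 10.28 against 9.86, 10.34 and 10.18. Pomp, the chaperone that matures the beta ring, was 13.80, 13.81 and 13.63 against 13.69, 13.63 and 13.57, a difference of -0.12 ± 0.13 (SE).

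Nfe2l1 encodes the transcription factor that raises proteasome genes together when proteasome activity is short. It was 11.07, 11.47 and 11.45 in Blimp1 +/gfp and 11.62, 11.63 and 11.48 in Blimp1 gfp/gfp, which lay apart only narrowly, at 11.47 and 11.48 for the nearest arrays (0.25 ± 0.16 SE; adjusted p = 0.491, limma with Benjamini-Hochberg). Of the 7 shuttle and extraction factors tested, 0 had an unadjusted p under 0.05, and Vcp, the ATPase that extracts ubiquitylated proteins, differed by 0.15 ± 0.16 (SE).

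Promoters of 4 members are shown, Psmc1 and Psmd6 for the largest differences and Psmb5 and Psmb6 as catalytic genes with small ones. Each is 250 bases before and 50 after a start site, on the strand of the gene, from RefSeq on GRCm38.p6. Capitals mark CCGGAAG, the core bound by ETS-family factors, on either strand in Psmc1 and Psmd6, and TGACNNNGC, the antioxidant response element core bound by Nfe2l1 and Nfe2l2, in Psmb5 and Psmb6.
Psmc1 (chr12:100109952-100110251, plus strand): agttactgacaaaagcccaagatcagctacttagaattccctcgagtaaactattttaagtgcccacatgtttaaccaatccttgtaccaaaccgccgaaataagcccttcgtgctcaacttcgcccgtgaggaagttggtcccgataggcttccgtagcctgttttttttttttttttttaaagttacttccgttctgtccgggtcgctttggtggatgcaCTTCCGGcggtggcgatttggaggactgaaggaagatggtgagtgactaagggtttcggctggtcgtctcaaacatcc
Psmd6 (chr14:14120896-14121195, minus strand): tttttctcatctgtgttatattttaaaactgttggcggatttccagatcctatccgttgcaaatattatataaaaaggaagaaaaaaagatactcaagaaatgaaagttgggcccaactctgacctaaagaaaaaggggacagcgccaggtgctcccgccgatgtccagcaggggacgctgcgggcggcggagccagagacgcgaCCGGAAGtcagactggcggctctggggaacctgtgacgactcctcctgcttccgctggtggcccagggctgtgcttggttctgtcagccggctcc
Psmb5 (chr14:54617946-54618245, minus strand): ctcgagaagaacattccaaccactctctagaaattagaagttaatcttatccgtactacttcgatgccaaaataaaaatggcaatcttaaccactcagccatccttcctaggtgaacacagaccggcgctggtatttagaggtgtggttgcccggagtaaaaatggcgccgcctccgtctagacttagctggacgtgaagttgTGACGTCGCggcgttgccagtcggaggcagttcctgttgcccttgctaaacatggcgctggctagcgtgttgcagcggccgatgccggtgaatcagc
Psmb6 (chr11:70525107-70525406, plus strand): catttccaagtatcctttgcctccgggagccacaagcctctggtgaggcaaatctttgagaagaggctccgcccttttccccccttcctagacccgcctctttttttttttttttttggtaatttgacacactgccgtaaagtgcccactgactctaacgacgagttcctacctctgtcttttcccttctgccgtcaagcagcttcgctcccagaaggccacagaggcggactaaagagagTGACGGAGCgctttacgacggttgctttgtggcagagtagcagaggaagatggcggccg

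The marked matches begin 28 and 45 bases before the start site in Psmc1 and Psmd6, and 47 and 9 bases before it in Psmb5 and Psmb6. The promoter table held 31 windows for 29 of the 36 members. TGACNNNGC was found in 5 of the 31 (16.1%) and in 12.4% of all 32851 windows, and the members with it were Psmb5, Psmb6, Psmc6, Psmd9 and Psmd12. AGNGAAAG, a letter form of the Blimp-1 site, was found in 9.68% of the member windows and 8.63% of all, and the shorter GAAAGT in 9.68% and 14.3%. CCAAT was found in 38.7% and 37.4%, GGGCGG in 58.1% and 35.7%, and CCGGAAG in 35.5% and 8.86%. Each motif was searched on both strands, and these motifs do not overlap by design except that AGNGAAAG can share letters with GAAAGT. A match says only that the letters are there.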

How the data were processed

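Intensities of 6 Illumina arrays were used. Per the file headers, the authors deposited a mean bead intensity with its detection p-value per probe, and the intensities were on a linear scale without background subtraction. The submitters' processing notes name BeadStudio and limma, and the settings were not given in the sources used here. The table of deposited log2 values differed from neqc applied here by at most 0.0976 (median 0.00293), which settles its scale and direction.

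Intensities were processed with neqc (limma 3.58.1, R 4.3.3; normexp with negative controls inferred from detection p-values, offset 16, quantile normalization, log2). Each detection column ranked most closely with the intensity column beside it. Each gene was represented by the probe with the highest mean deposited log2 value, and was tested if its detection p was under 0.05 on at least 3 of 6 arrays (8739 genes). Of the probes, 29976 had 1 symbol, 10 several and 16646 none, and all 36 members matched RefSeq by Entrez ID. Genotypes were compared with lmFit and eBayes, with Benjamini-Hochberg adjustment over all genes tested. The fit was checked on simulated data.

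The members and the 21 gene lists were chosen with earlier results of these data known. Named with array values were the 3 members of each role with the smallest p, the catalytic genes and 7 related genes. Psmc5, Psmd2, Psmd7, Psmd11, Foxp3 and the genes of the sample check were added after their values were seen. Other background corrections, normalizations, filters, probe rules, variance models, array weights, a replicate block, thresholds and the omission of each array were tried. The ratios of catalytic pairs were added after seeing the data. Figures were drawn with matplotlib 3.10.9.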

Additional observations from a re-analysis of the deposited data

How the results depend on the processing

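The count of changed members was 0, and it was 1 with normexp alone, with a mean over kept probes and with a trended robust variance, 2 with median scaling, with array weights and at an adjusted p under 0.1, 5 at an unadjusted p under 0.05, and 0 to 1 when single arrays were left out. The member that passed without Blimp1 +/gfp replicate 3 was Psmc1. Changed genes over all genes tested numbered 360 and were 826 with array weights, 171 with the replicate block, 668 at an adjusted p under 0.1, 1618 at an unadjusted p under 0.05, and 71 to 347 when single arrays were left out (71 without replicate 1 of Blimp1 +/gfp, 92 without its replicate 2 and 347 without its replicate 3, then 183, 126 and 97 for the Blimp1 gfp/gfp replicates in that order). In the related lists 2 genes passed, Psmb9 and Psmb10, with normexp alone, with a trended robust variance, with array weights and at an adjusted p under 0.1, and 5 did at an unadjusted p under 0.05. The median difference of the members was 0.27 with median scaling, which moved the median of all genes to 0.16, so the members lay 0.11 above it, as against 0.10 in the main setting. With array weights the median was 0.07, and 0.04 above that of all genes. When single arrays were left out it was 0.08 to 0.18. Of 509 differences of members under the other settings, 37 had the other sign, in 14 genes, and none of these passed in any setting. The cause of these changes was not tested. Same-numbered samples of the genotypes deviated together with correlations of 0.19, -0.08 and 0.00, and differently numbered ones with -0.15 to 0.16. With 3 arrays per genotype, these values cannot settle whether the numbers pair the samples. With the replicate block 0 members passed.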

Other observations

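Among the 24 tested members with a promoter window, CCGGAAG was found in 4 of the 5 with an unadjusted p under 0.05 (Psmc1, Psmc2, Psmd6 and Psmd12, not Psmd14) and in 3 of the other 19 (Psmc6, Psmd4 and Psmd13). It was also found in Psma6, Psmd2 and Psmd11, which were too dim to test. In the same split, AGNGAAAG was found in 1 of the 5 (Psmc2) and 2 of the other 19 (Psma1 and Psmd10). GAAAGT was also found in 1 (Psmd6) and 2 (Psma2 and Psmb3). TGACNNNGC was found in 1 and 4, CCAAT in 3 and 7, and GGGCGG in 3 and 13. CCGGAAG was 1 of 6 motifs searched, and its pattern was seen after the differences were known, so it is given as a count without a test.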
